A study of Bos taurus and Sus scrofa with 10 samples.

Results

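The antioxidant defence genes described here are 10 genes whose enzymes or carrier proteins remove superoxide and peroxides or keep the thiol systems supplied: SOD1, SOD2, CAT, GPX1, GPX4, PRDX1, PRDX2, PRDX3, TXN and GCLC. They were taken by exact symbol from a table of cow genes and a table of pig genes. 7 of the 10 had a row among the 22845 rows for cow, and 9 had a row among the 21867 rows for pig. SOD2, GPX1 and GPX4 in cow and PRDX1 in pig were not analysed here. The 6 genes with a row in both species were SOD1, CAT, PRDX2, PRDX3, TXN and GCLC.

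RNA sequencing of total RNA was applied to cow (Bos taurus) and pig (Sus scrofa) at 5 stages: the oocyte, the embryo of 2-4 cells, the embryo of 8-16 cells, the morula and the blastocyst. A stage was represented by 1 library per species, so the 10 libraries held no replicates and no difference given here has a replicate check. The labels name no treatment, genotype, breed, maternal age or way in which the embryos were produced, and the number of oocytes or embryos pooled for a library is not in them. A blastocyst mixes the outer trophectoderm with the inner cell mass, and in such bulk libraries fewer cells of a type cannot be told apart from less RNA per cell.

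Superoxide leaks from the respiratory chain and is turned into hydrogen peroxide by the superoxide dismutases. Hydrogen peroxide is then destroyed by catalase, by glutathione peroxidases at the expense of glutathione, and by peroxiredoxins, most of which are recharged by thioredoxin. Oocytes carry stored RNA and protein through the first cleavages, the embryo's own transcription takes over during cleavage in both species, and oxidative stress is a well known difficulty of embryos grown in culture.

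Levels are given as reads per 1000000 reads of the library (RPM), which are not divided by gene length. RPM values were therefore compared between stages of 1 gene within 1 species, never between genes or between the species. Intervals are 95% intervals from the read counts (Wilson for a level, exact for a ratio of levels) and cover counting error only, because amplified reads without molecular identifiers are not independent molecules. A change between stages was the difference of log2(RPM + 1), computed where at least 1 of both libraries reached 1 RPM, and a gene was called at a difference of at least 2 in either direction, which is 4-fold on that scale. The added 1 shrinks the change of a gene with few reads, so ratios of RPM are given beside it. A gene below 1 RPM in the earlier library was compared only if the later library reached 1 RPM. Such a gene could be called higher but not lower, and the reverse held for a gene below 1 RPM in the later library.

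The libraries held between 3002751 reads (pig morula) and 14182045 reads (cow blastocyst), of which 71.7% to 92.7% fell in gene rows. A gene with 0 reads could have reached a floor of 3 reads, which is 0.212 to 0.999 RPM depending on the library. Reads on the mitochondrial chromosome made up 4.40% of the cow oocyte library and 30.2% of the cow blastocyst library, against 6.06% and 18.6% in pig. The 11 oocyte markers, all with a row in cow and 10 of them in pig, summed to 6104 RPM in the cow oocyte and 0.282 RPM in the cow blastocyst, and to 7255 RPM and 23.6 RPM in pig. The 7 measured of 8 trophectoderm markers summed to 52.1 RPM in the cow oocyte and 3406 RPM in the cow blastocyst, and to 21.0 RPM and 8386 RPM in pig. In the cow oocyte 5 of these markers reached 1 RPM and 2 had 0 reads, and in the pig oocyte 2 and 5. KRT18, a keratin of that layer, had 0 reads in both oocyte libraries. DAB2 reached 27.2 RPM in the cow oocyte and TFAP2C 19.8 RPM in the pig oocyte. The inner cell mass markers summed to 13.8 and 335 RPM in cow (5 of 5 measured) and to 1.78 and 264 RPM in pig (4 of 5), where SOX2 and NANOG had 0 reads in the blastocyst. GATA6 alone held 226 of the 335 RPM in the cow blastocyst and 261 of the 264 RPM in the pig blastocyst. Markers of cumulus cells, which surround the oocyte, summed over the 5 stages to between 65.9 and 322 RPM in cow (14 of 15 measured) and between 118 and 387 RPM in pig (11 of 15). AMH and FOXL2 had 0 reads in the cow oocyte, while STAR reached 157 RPM, VCAN 116 RPM and FSHR 37.3 RPM there. Markers of blood cells summed to at most 11.99 RPM in any library. Marker sums and the mitochondrial share thus moved with stage together with the genes below. The part of the marker sums in the results was not tested. The mitochondrial share was addressed only by leaving mitochondrial reads out of the scaling.

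Superoxide dismutase 1, the copper and zinc enzyme of the cytosol, was highest early in both species. In cow, SOD1 (chromosome 1, 3113949 to 3122613, minus strand) measured 67.95 RPM in the oocyte, 70.07 RPM at 2-4 cells, 21.4 RPM at 8-16 cells, 3.08 RPM in the morula (12 reads, 1.76 to 5.38 RPM) and 22 RPM in the blastocyst. The oocyte and 2-4 cell levels could not be told apart by counting error, nor could those of the 8-16 cell embryo and the blastocyst, whereas the morula lay below all others. SOD1 was called lower from 8-16 cells to the morula, by 6.94-fold (3.82 to 13.8), and higher from the morula to the blastocyst, by 7.15-fold (4.03 to 14.0). Both of these calls rest on the 12 reads of the morula library, and with a pseudocount of 5 neither was made (-1.71 and 1.74).

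In pig, SOD1 (chromosome 13, 195326599 to 195335484, plus strand) stepped down through the series, with 95.9 RPM in the oocyte, 37.0 RPM at 2-4 cells, 32.2 RPM at 8-16 cells, 19.3 RPM in the morula and 11.8 RPM in the blastocyst. No single step was called, and the 2-4 cell and 8-16 cell levels could not be told apart by counting error. Between the 2 ends of the series, oocyte and blastocyst, pig SOD1 was called lower, by 8.13-fold (5.92 to 11.4), a difference of -2.92. In cow the same comparison gave a level 3.09-fold lower (2.64 to 3.62), a difference of -1.58 that was not called. The pig row of SOD1 shared 2225 bases, 25.0% of its span, with SCAF4 on the opposite strand, a gene with 233, 124, 183, 219 and 80.2 RPM over the same stages. Whether the counting used strand is not given in the sources used here, so reads of both genes in that stretch cannot be told apart.

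Superoxide dismutase 2, the manganese enzyme of the mitochondrial matrix, was measured in pig (chromosome 1, 7679352 to 7691724, plus strand). SOD2 stood at 9.18 RPM in the oocyte, 7.97 RPM at 2-4 cells, 6.0 RPM at 8-16 cells, 9.32 RPM in the morula and 151 RPM in the blastocyst. The first 4 levels could not be told apart from their neighbours in rank by counting error. The blastocyst was 16.2-fold above the morula (11.08 to 24.6) and 16.4-fold above the oocyte (11.5 to 24.4), and both differences, 3.88 and 3.90, were called. The cytosolic and the mitochondrial dismutase thus had opposite directions over the pig series, lower for SOD1 and higher for SOD2.

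**Figure D1:**
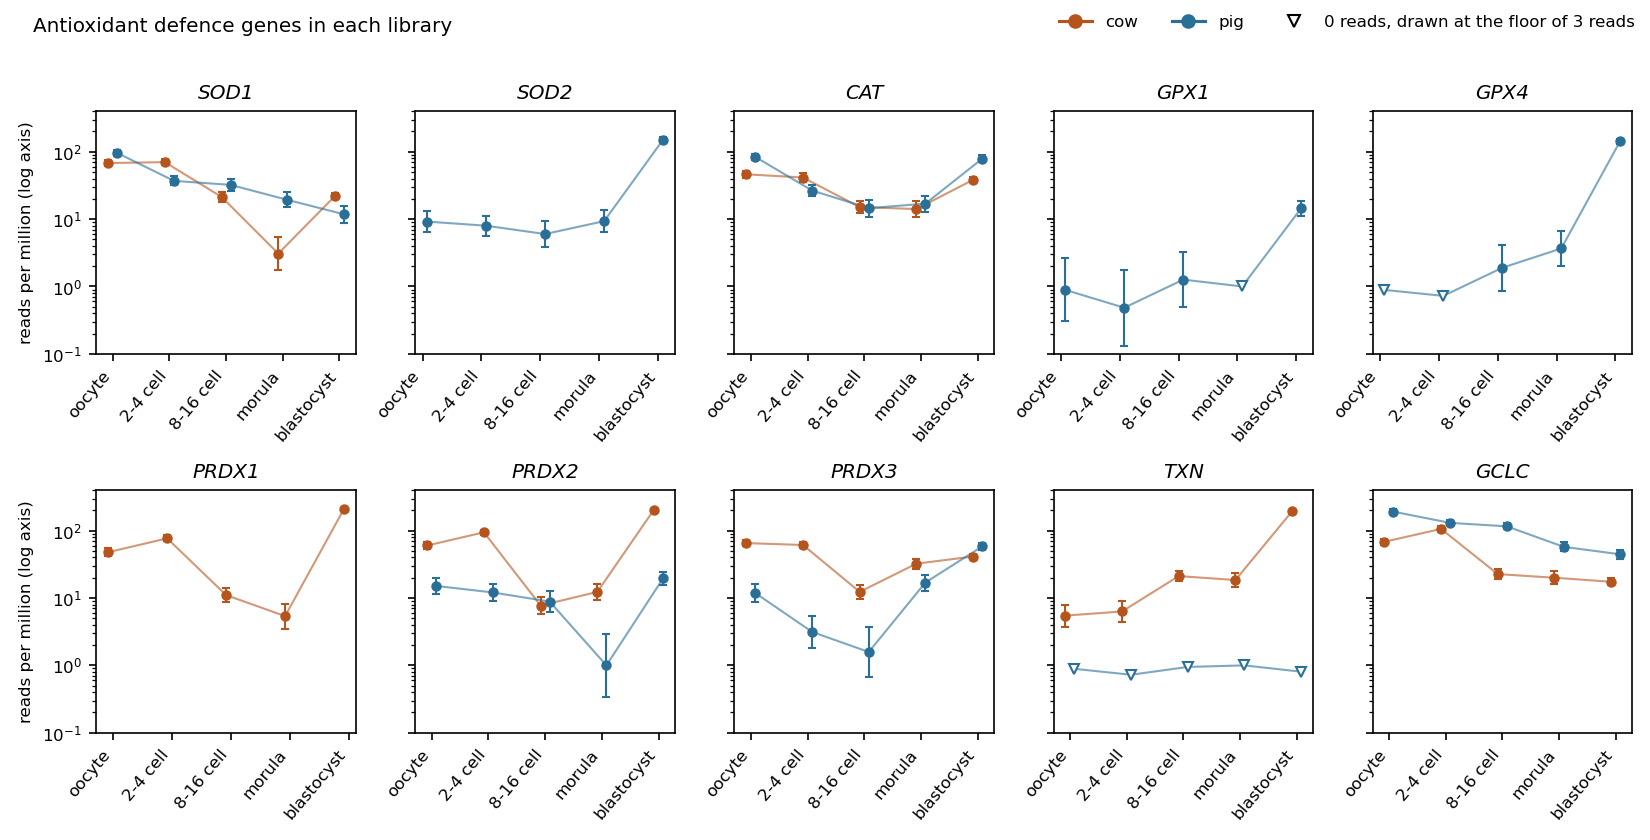
Level of each antioxidant defence gene in the 10 libraries, in reads per 1000000 reads on a log axis, with 1 panel per gene and 1 point per library (cow orange, pig blue). Bars are 95% Wilson intervals from the read counts, and open triangles mark 0 reads drawn at the floor of 3 reads. The blastocyst point is the highest of its species in the panels of SOD2, GPX1, GPX4, PRDX1 and PRDX2, as well as for cow TXN and pig PRDX3.

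Catalase, the haem enzyme that breaks down hydrogen peroxide without a cofactor to recharge, traced a trough in both species. It was high in the oocyte and the blastocyst and lowest at 8-16 cells and in the morula. In cow, CAT (chromosome 15, 65779325 to 65815261, plus strand) measured 46.2 RPM in the oocyte, 41.5 RPM at 2-4 cells, 15.1 RPM at 8-16 cells, 14.1 RPM in the morula and 38.3 RPM in the blastocyst. The 2 low stages could not be told apart from each other by counting error, nor could neighbours in rank among the 3 high ones, and no cow step of CAT was called. The 2 larger cow steps were similar in size, a level 2.75-fold lower from 2-4 to 8-16 cells (2.11 to 3.61), a difference of -1.40, and 2.71-fold higher from the morula to the blastocyst (2.05 to 3.65), a difference of 1.38.

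In pig, CAT (chromosome 2, 26493626 to 26581452, minus strand) measured 83.8 RPM in the oocyte, 26.6 RPM at 2-4 cells, 14.5 RPM at 8-16 cells, 17.0 RPM in the morula and 78.6 RPM in the blastocyst. The pig level was already lower at 2-4 cells, by 3.15-fold (2.52 to 3.97), whereas the cow oocyte and 2-4 cell levels could not be told apart by counting error. From the morula to the blastocyst pig CAT was called higher, by 4.63-fold (3.43 to 6.36). This call, a difference of 2.15, was lost with libraries scaled to their median gene (1.97) and with a pseudocount of 5 (1.93). The ratio of the pig blastocyst to the pig oocyte was 0.938 (0.794 to 1.11), an interval that includes 1, and in cow the blastocyst was 1.21-fold lower than the oocyte (1.03 to 1.41). The direction of both end-to-end differences, -0.27 in cow and -0.09 in pig, flipped to 0.13 and 0.02 with mitochondrial reads left out of the scaling. The pig row of CAT shared 2121 bases, 2.42% of its span, with ABTB2 on the opposite strand.

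GPX1 and GPX4, which reduce peroxides with glutathione, were near the floor in pig until the blastocyst. GPX1, the cytosolic enzyme that acts on hydrogen peroxide (chromosome 13, 31916246 to 31917433, minus strand), had 3 reads in the oocyte, 2 reads at 2-4 cells, 4 reads at 8-16 cells, 0 reads in the morula and 54 reads in the blastocyst, which is 14.5 RPM. The blastocyst was 16.3-fold above the oocyte (5.29 to 81.5) and at least 14.5-fold above the morula, taken at its floor. The differences of 3.04 and 3.57 were called, but not with a pseudocount of 5 (1.73 and 1.88), and the 4 earlier levels could not be told apart from their neighbours in rank by counting error.

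GPX4, which reduces lipid peroxides within membranes and restrains ferroptosis (chromosome 2, 77320464 to 77323938, minus strand), had 0 reads in the pig oocyte and at 2-4 cells. It then had 6 reads (1.90 RPM) at 8-16 cells, 11 reads (3.66 RPM) in the morula and 538 reads (144 RPM) in the blastocyst. The blastocyst was 39.4-fold above the morula (21.8 to 79.4) and at least 162-fold above the oocyte, with called differences of 4.96 and 6.84. The row of GPX4 lies with 99.97% of its span, 3474 bases, inside that of SBNO2 on the opposite strand. SBNO2 was listed at 8.59, 4.83, 10.4, 4.995 and 150 RPM over the 5 stages, so it was highest in the same library. Both rows may count the same reads there, so the SBNO2 values do not show a separate increase. Reads of the shared stretch cannot be assigned to either gene here, because the use of strand in the counting is not given in the sources used here.

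Peroxiredoxins are abundant thiol peroxidases, PRDX1 and PRDX2 in the cytosol and PRDX3 in mitochondria. In cow, both cytosolic members dipped deeply in mid-cleavage and were highest in the blastocyst. PRDX1 (chromosome 3, 101152892 to 101166725, plus strand) measured 47.9 RPM in the oocyte, 76.8 RPM at 2-4 cells, 11.04 RPM at 8-16 cells, 5.39 RPM in the morula (21 reads) and 211 RPM in the blastocyst. All neighbouring levels of PRDX1 in rank differed beyond counting error. It was called lower from 2-4 to 8-16 cells, by 6.96-fold (5.27 to 9.31), and higher from the morula to the blastocyst, by 39.1-fold (25.6 to 63.3). The blastocyst exceeded the oocyte by 4.40-fold (3.86 to 5.05), a called difference of 2.12 that was 1.70, and not called, with libraries scaled to their median gene.

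PRDX2 in cow (chromosome 7, 13845843 to 13848479, plus strand) measured 60.2 RPM in the oocyte, 94.4 RPM at 2-4 cells, 7.73 RPM at 8-16 cells, 12.3 RPM in the morula and 205 RPM in the blastocyst. The drop from 2-4 to 8-16 cells was 12.2-fold (8.88 to 17.2), the deepest step downward among the cow antioxidant defence genes, with a difference of -3.45. The morula to blastocyst step was 16.7-fold upward (12.6 to 22.7) and was called. The blastocyst exceeded the oocyte by 3.41-fold (3.03 to 3.86), a difference of 1.75 that was not called, but reached 2.16 with mitochondrial reads left out of the scaling and 2.22 after quantile normalisation.

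In pig, PRDX2 (chromosome 2, 66207880 to 66239669, plus strand) measured 15.1 RPM in the oocyte, 12.1 RPM at 2-4 cells, 8.84 RPM at 8-16 cells, 0.999 RPM in the morula (3 reads) and 19.6 RPM in the blastocyst. The pig trough thus lay in the morula, whereas the cow level was lowest at 8-16 cells. The morula was 8.85-fold below the 8-16 cell embryo (2.73 to 45.5) and 19.6-fold below the blastocyst (6.44 to 97.2), and both steps were called on those 3 reads. The first of these calls was lost with a pseudocount of 5 (-1.21). Blastocyst and oocyte differed by 1.30-fold (0.894 to 1.89), an interval that includes 1, and the difference of 0.35 changed sign with median gene scaling (-0.19) and quantile normalisation (-0.08). The pig row also shared 597 bases with RNASEH2A and 1044 bases with JUNB on the opposite strand, and JUNB had 0 reads in every pig library. The pig row spans 31790 bases and the cow row 2637, and whether both cover the same stretch of the gene was not tested.

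PRDX3, the mitochondrial member, was low at 8-16 cells in both species and was already higher in the morula. In cow it (chromosome 26, 39672044 to 39681392, minus strand) measured 65.3 RPM in the oocyte, 61.3 RPM at 2-4 cells, 12.3 RPM at 8-16 cells, 32.3 RPM in the morula and 41.3 RPM in the blastocyst. The step from 2-4 to 8-16 cells was called lower, by 4.97-fold (3.79 to 6.59), while the 2.62-fold higher morula (1.93 to 3.58) was not called. The cow blastocyst stayed 1.58-fold below the oocyte (1.38 to 1.81).

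In pig, PRDX3 (chromosome 14, 129079051 to 129090830, minus strand) measured 11.8 RPM in the oocyte, 3.14 RPM at 2-4 cells (13 reads), 1.58 RPM at 8-16 cells (5 reads), 17.0 RPM in the morula and 58.2 RPM in the blastocyst. The 2-4 and 8-16 cell levels could not be told apart by counting error, with a ratio of 1.99 (0.665 to 7.13), nor could those of the morula and the oocyte. The morula was 10.8-fold above the 8-16 cell embryo (4.32 to 34.5), and this call rests on the 5 reads of the latter library and was lost with a pseudocount of 5 (1.74). The pig blastocyst was 4.91-fold above the oocyte (3.49 to 7.07), a called difference of 2.20, against -0.65 in cow. The pig value was 1.65 with median gene scaling, 1.95 with quantile normalisation and 1.91 with a pseudocount of 5, and so was not called under those settings.

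Thioredoxin, the small dithiol protein that recharges peroxiredoxins, had the largest difference from oocyte to blastocyst of the 7 cow antioxidant defence genes. TXN in cow (chromosome 8, 101484812 to 101492588, minus strand) measured 5.48 RPM in the oocyte, 6.31 RPM at 2-4 cells, 21.2 RPM at 8-16 cells, 18.5 RPM in the morula and 194 RPM in the blastocyst. Oocyte and 2-4 cell levels could not be told apart by counting error, nor could those of the 8-16 cell embryo and the morula. TXN was the 1 cow gene of the 7 with a higher level at 8-16 than at 2-4 cells, by 3.36-fold (2.20 to 5.27), which was not called. The blastocyst was called 10.5-fold above the morula (8.31 to 13.5) and 35.4-fold above the oocyte (24.3 to 53.8), a difference of 4.91.

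The pig row named TXN (chromosome 4, 108794826 to 108798578, minus strand) had 0 reads in all 5 libraries, and no fold is given. Its floors were 0.725 to 0.999 RPM, and the Wilson upper limits were 0.928 to 1.28 RPM. The row is on a chromosome other than that of TXNDC8, the neighbour of TXN in the cow table, which is on chromosome 1 in pig. Between C9orf152 and TXNDC8 the pig table held 2 rows with an identifier and no symbol, on opposite strands. ENSSSCG00000005453 (251264178 to 251277550, minus strand) had 51.2, 13.5, 13.9, 73.3 and 136 RPM from oocyte to blastocyst. ENSSSCG00000036297 (251248605 to 251284933, plus strand), whose span encloses the former, had 51.2, 14.3, 17.1, 77.9 and 136 RPM. Both rows had 173 reads in the oocyte, and 506 and 507 in the blastocyst. No gene name was given to either row here, and the pig TXN values describe only the row of that name.

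GCLC encodes the catalytic subunit of glutamate cysteine ligase, the rate-limiting enzyme of glutathione synthesis. Among the antioxidant defence genes it ended lowest relative to its start in cow, and next to SOD1 in pig. In cow, GCLC (chromosome 23, 6922380 to 6965163, plus strand) measured 68.4 RPM in the oocyte, 106 RPM at 2-4 cells, 22.6 RPM at 8-16 cells, 20.004 RPM in the morula and 17.4 RPM in the blastocyst. It was called lower from 2-4 to 8-16 cells, by 4.69-fold (3.84 to 5.76), and the 3 later levels could not be told apart from their neighbours in rank by counting error, although the blastocyst lay 1.30-fold below the 8-16 cell embryo (1.04 to 1.62). The oocyte to blastocyst difference of -1.91, a level 3.92-fold lower (3.32 to 4.64), lay just under the threshold and passed it with median gene scaling (-2.32) and quantile normalisation (-2.01).

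In pig, GCLC (chromosome 7, 27209565 to 27253530, plus strand) measured 191 RPM in the oocyte, 130 RPM at 2-4 cells, 116 RPM at 8-16 cells, 57.6 RPM in the morula and 44.5 RPM in the blastocyst. No single step was called, and the 2-4 and 8-16 cell levels could not be told apart by counting error. The blastocyst was 4.30-fold below the oocyte (3.62 to 5.13), a called difference of -2.08 that lay just past the threshold. It was not called with mitochondrial reads left out of the scaling (-1.97), with all libraries thinned to the shallowest read total (-1.98) or with a pseudocount of 5 (-1.99). The ratio of blastocyst to morula was 0.772 (0.621 to 0.961) for pig GCLC and 0.871 (0.672 to 1.14) for cow GCLC, an interval that includes 1. The cow difference of -0.19 turned to 0.08 with mitochondrial reads left out of the scaling and was 0 after thinning.

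**Figure D2:**
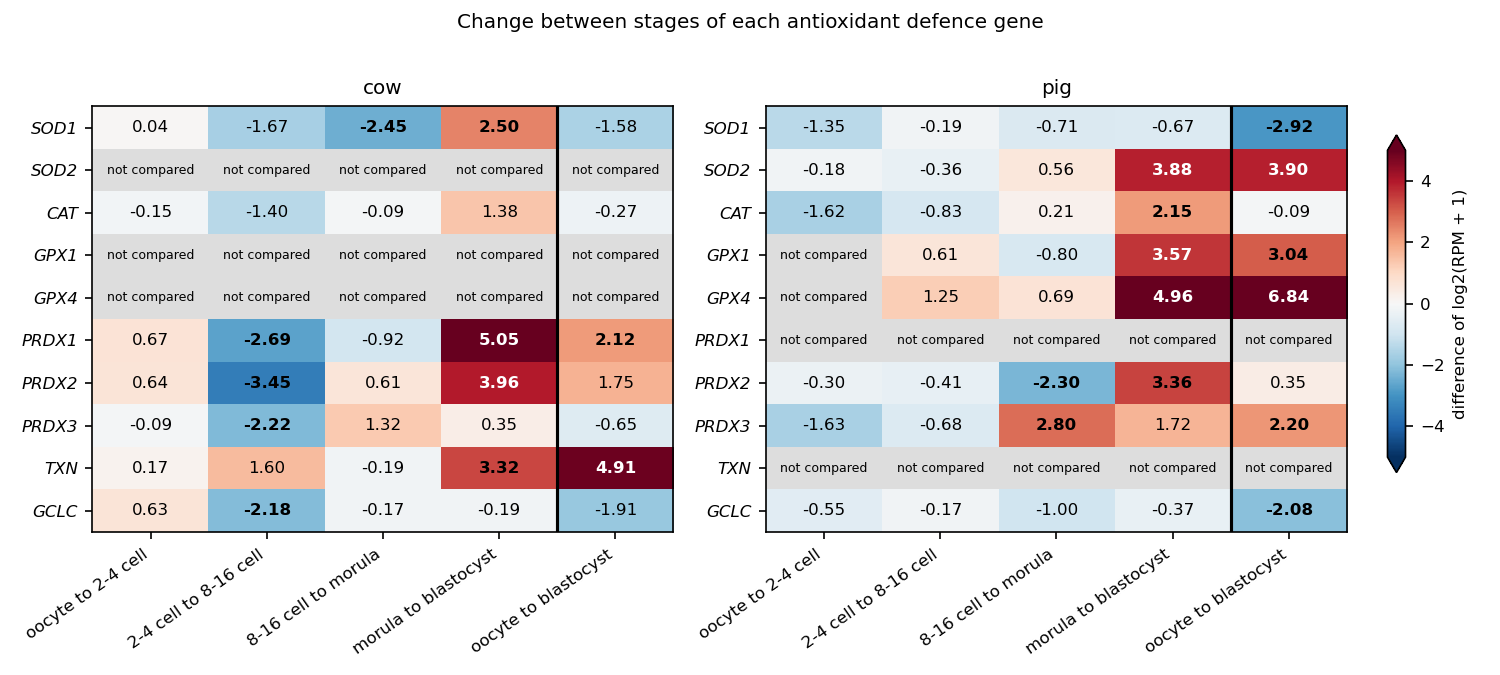
Difference of log2(RPM + 1) for each antioxidant defence gene (rows) at the 4 steps between stages and from oocyte to blastocyst (columns), cow on the left and pig on the right, with red for higher and blue for lower at the later stage. Bold values reach 2 in either direction, grey cells were not compared, and called decreases appear in the cow column from 2-4 to 8-16 cells while called increases fill much of the morula to blastocyst columns.

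Considered by step, the cow genes moved mainly at 2 of them. From oocyte to 2-4 cells 0 of the 7 cow genes were called, against a background over all 11226 rows compared of 0.196% called higher and 0.178% called lower. From 2-4 to 8-16 cells 4 of 7 were called lower (PRDX1, PRDX2, PRDX3 and GCLC) and 0 higher, while 14.6% of the 12405 rows compared were called lower and 12.6% higher. The median difference of the 7 genes was -2.18, beside -0.44 over all rows. 2 of these 4 calls, those of PRDX3 and GCLC, were lost with libraries scaled to their median gene (-1.99 and -1.95) and with quantile normalisation (-1.90 and -1.84). PRDX3 alone was also lost with a pseudocount of 5 (-1.94), and GCLC alone with mitochondrial reads left out of the scaling (-1.98).

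From 8-16 cells to the morula SOD1 alone of the 7 cow genes was called, lower, where 5.15% of all rows were called lower and 6.67% higher. From the morula to the blastocyst 4 of 7 were called higher (SOD1, PRDX1, PRDX2 and TXN) and 0 lower, beside 11.9% of rows higher and 11.5% lower. The median of the 7 genes was 2.50 at that step and that of all rows -0.11. From oocyte to blastocyst 2 of 7 were called higher (PRDX1 and TXN), a share near the 21.8% of all rows, and 0 were called lower where 18.4% of rows were. With median gene scaling 1 was called higher (TXN) and 1 lower (GCLC), and with quantile normalisation 3 higher and 1 lower.

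In pig the calls fell late. From oocyte to 2-4 cells 0 of 6 genes compared were called, beside 3.26% of rows higher and 2.17% lower, although SOD1, CAT, PRDX3 and GCLC all had intervals of the ratio below 1. From 2-4 to 8-16 cells 0 of 8 were called, beside 4.33% higher and 0.543% lower. From 8-16 cells to the morula PRDX3 was called higher and PRDX2 lower among 8, shares close to the 12% of rows called higher and 11.3% called lower.

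From the morula to the blastocyst 5 of the 8 pig genes were called higher (SOD2, CAT, GPX1, GPX4 and PRDX2) and 0 lower, where 13.8% of rows were called higher and 13.8% lower. The median difference of the 8 genes was 2.75, beside -0.11 over all rows. From oocyte to blastocyst 4 of 8 were called higher (SOD2, GPX1, GPX4 and PRDX3) and 2 lower (SOD1 and GCLC), beside 26% and 19.2% of rows. With mitochondrial reads left out of the scaling 4 were called higher and 1 lower. 3 of the 5 called increases at the last step rest on a morula library with 0, 3 or 11 reads of the gene. GPX1 and PRDX2 lay below 1 RPM in the morula, and GPX1 and GPX4 in the oocyte. In those comparisons these genes could be called higher but not lower.

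**Figure D3:**
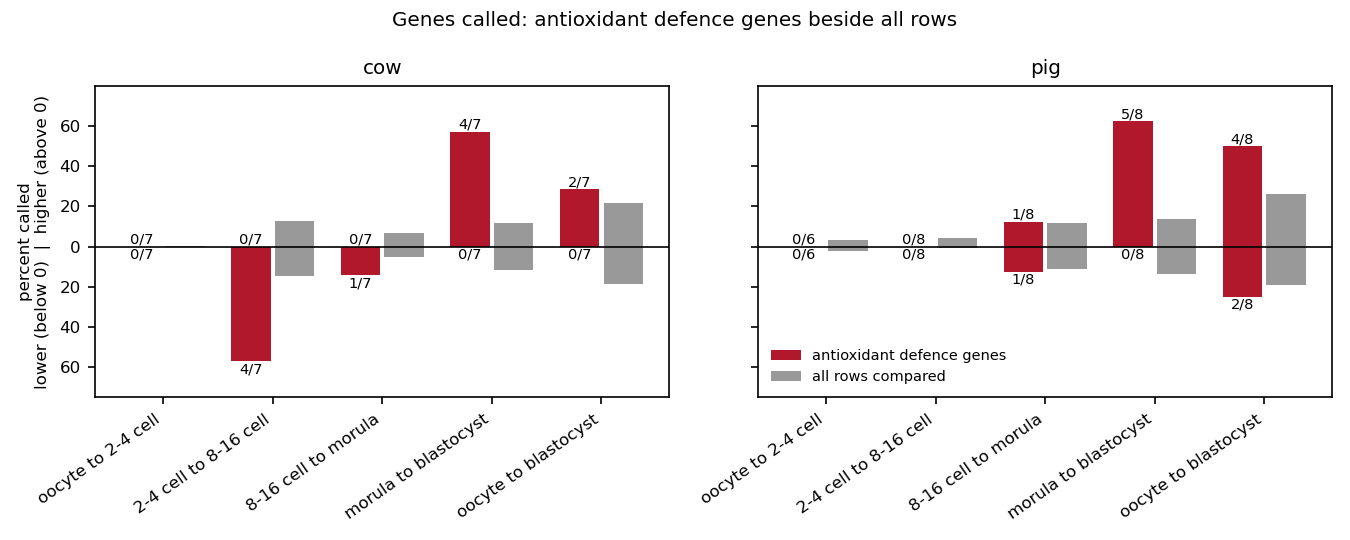
Percent of genes called higher (above the 0 line) and lower (below it) at each step and from oocyte to blastocyst, for the antioxidant defence genes compared (red, with counts) and for all rows compared (grey), cow left and pig right. The red bars stand far above the grey ones at the morula to blastocyst step, 4 of 7 in cow and 5 of 8 in pig.

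Set side by side, the 5 genes compared in both species did not share 1 course. CAT, PRDX2 and PRDX3 had a trough and a higher blastocyst than morula in cow and pig alike. GCLC was lower in the blastocyst than in the oocyte in both, and so was SOD1. SOD1 was higher in the blastocyst than in the morula in cow (2.50) and lower in pig (-0.67), and PRDX3 ended below its oocyte level in cow and above it in pig. The difference between the species was not tested, since each library stands alone and the tables were scaled separately.

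The wider redox system was described with 5 lists of 48 symbols, of which 44 had a row in cow and 42 in pig. From oocyte to blastocyst 13 of 40 cow genes compared were called higher and 5 lower, beside 21.8% and 18.4% of all rows, and their median difference was 0.60 where that of all rows was 0.18. With median gene scaling the cow split was 9 higher and 8 lower. In pig 15 of 34 were called higher and 4 lower, beside 26% and 19.2% of all rows, and their median was 1.84 where that of all rows was 0.43. Without the 10 antioxidant defence genes the counts were 11 higher and 5 lower of 33 in cow, and 11 higher and 2 lower of 26 in pig. The lists were chosen with earlier results of these data known.

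Among the dismutases and their copper chaperone, SOD3, the extracellular enzyme, had 0 reads in all 10 libraries. CCS, which loads copper into SOD1, had 0 reads in the cow oocyte and 4.72 RPM in the cow blastocyst, at least 7.76-fold higher, and 0 reads in all pig libraries. Of the peroxide-removing enzymes, catalase included, 5 of 11 were called higher in cow and 6 of 10 in pig, and 0 were called lower in either. Over all rows 21.8% were called higher and 18.4% lower in cow, and 26% and 19.2% in pig. PRDX5, a peroxiredoxin found in several organelles, was at 2.84 RPM in the cow oocyte and 35.5 RPM in the cow blastocyst, 12.5-fold higher (7.37 to 23.0). In pig PRDX5 had 3 reads in the oocyte and 2421 in the blastocyst, a ratio of 731 (249.8 to 3546). PRDX6, which uses glutathione rather than thioredoxin, was 12.8-fold higher in the cow blastocyst than in the oocyte (8.14 to 21.4) and 82.0-fold higher in pig (44.4 to 171).

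The thioredoxin and glutaredoxin list had 6 of 11 genes called higher and 1 lower in cow, and 5 of 8 higher and 0 lower in pig, beside 21.8% higher and 18.4% lower of all cow rows and 26% and 19.2% of all pig rows. TXNRD1, the cytosolic thioredoxin reductase, stood at 28.2, 56.8, 138, 191 and 126 RPM over the cow stages and at 19.5, 47.1, 53.7, 160 and 158 RPM over the pig stages, so it was already high in the morula of both species. From oocyte to blastocyst it was called higher in both, by 4.47-fold in cow (3.76 to 5.35) and 8.11-fold in pig (6.28 to 10.6). TXNRD3, a reductase with an added glutaredoxin domain, was also called higher in both, with differences of 2.31 in cow, from 2 reads, and 3.56 in pig, from 0 reads. GLRX5, a mitochondrial glutaredoxin of iron-sulphur cluster assembly, had the largest pig difference of this list, 4.85 against 0.47 in cow. TXNIP, the protein that binds and inhibits thioredoxin, was called in opposite directions: 32.3 RPM in the cow oocyte and 0 reads in the cow blastocyst, at least 152-fold lower, and 1 read in the pig oocyte and 31 in the pig blastocyst, a ratio of 28.1 (4.68 to 1144).

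Of the genes of glutathione synthesis and NADPH supply, 1 of 9 was called higher and 2 lower in cow, near the 21.8% and 18.4% of all rows, and 3 of 8 were called higher and 3 lower in pig, beside 26% and 19.2%. CHAC1, which degrades glutathione, was called lower in both, by 14.4-fold in cow (10.96 to 19.3) and from 55 reads to 1 in pig, a ratio of 60.7 (10.5 to 2442). GSS, which completes glutathione after GCLC, differed by 4.78 in pig and by -0.56 in cow, where it had 8 reads in the oocyte and 11 in the blastocyst. GCLM, the modifier subunit that pairs with GCLC and was picked for that role after its values were seen, was not called in either species (-1.21 in cow and 0.64 in pig).

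Of the NRF2 regulators and target genes, 2 of 7 were called lower and 0 higher in cow, beside 18.4% and 21.8% of all rows, and 0 of 6 were called in pig, beside 19.2% lower and 26% higher. MAFG, a small partner of NRF2 on DNA, was 11.4-fold lower in the cow blastocyst than in the oocyte (8.94 to 14.7), a difference of -3.31. The largest pig difference of that list was that of KEAP1, the sensor that holds NRF2 back, at 1.96 from 4 reads in the oocyte to 28 in the blastocyst. NFE2L2, the gene of NRF2 itself and likewise picked after its values were seen, stood at 27.2 RPM in the cow oocyte and 67.7 RPM in the cow blastocyst, and at 191 and 198 RPM in pig, and was not called in either.

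Of all listed genes 31 were compared in both species from oocyte to blastocyst, and 22 of these had the same sign. 6 were called in both: PRDX5, PRDX6, TXNRD1 and TXNRD3 higher, CHAC1 lower, and TXNIP in opposite directions. None of the antioxidant defence genes was among those 6. The same counts over all symbols shared by the species are not given here, so whether these counts are unusual was not tested.

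**Figure D4:**
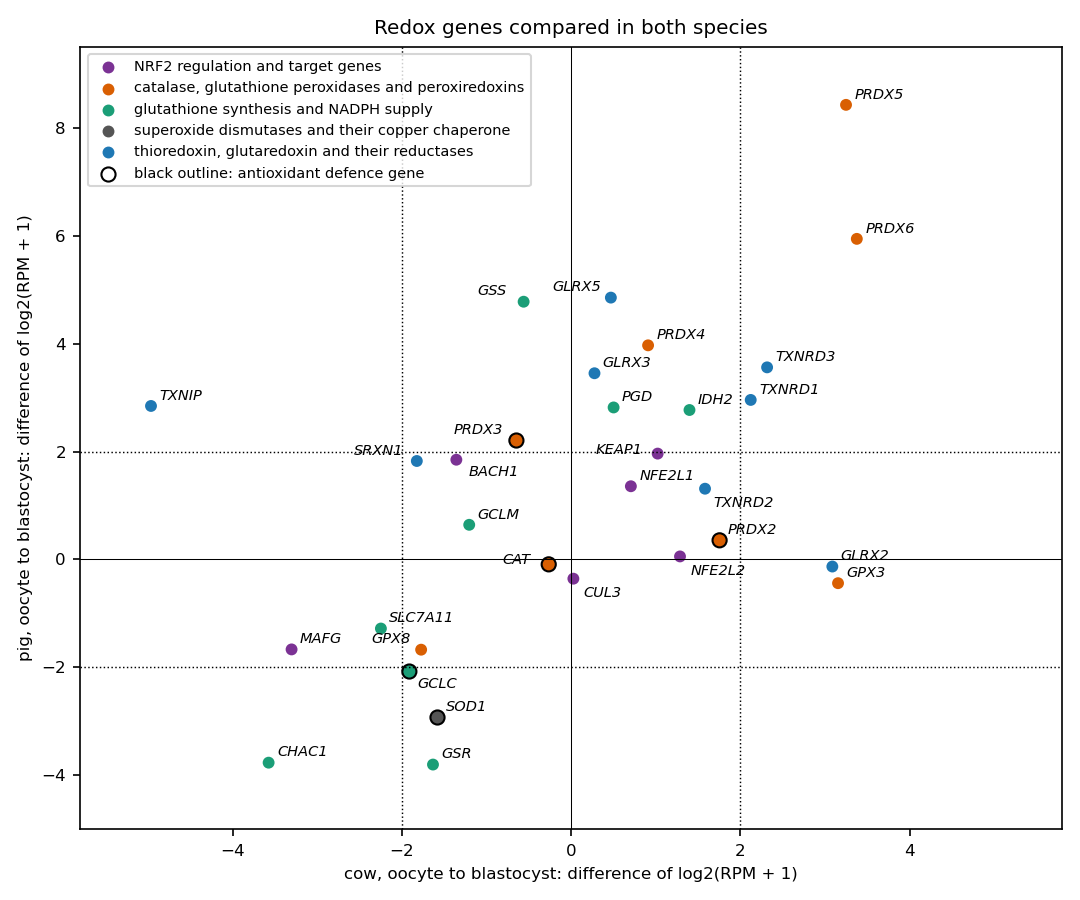
Difference of log2(RPM + 1) from oocyte to blastocyst in cow (horizontal axis) and pig (vertical axis) for the 31 redox genes compared in both species, coloured by list, with a black outline on the antioxidant defence genes and dotted lines at a difference of 2 in either direction. PRDX5, PRDX6, TXNRD1 and TXNRD3 lie beyond the lines at upper right, CHAC1 at lower left, and TXNIP at upper left.

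For each gene above 1 RPM in some library of both species, the other symbols most like it in course were found by the root mean square difference of log2(RPM + 1) over all 10 libraries, after the mean of each species was removed. The search covered 9688 symbols, and the measure is a description in which the points of a species share their tables. GCLC had the closest neighbours, TTC1 at 0.13 and DYNC1I2 at 0.17, where the median over all symbols was 1.32. TTC1 was at 245, 376, 88.2, 92.6 and 79.5 RPM over the cow stages and at 781, 528, 527, 275 and 171 RPM over the pig stages, which repeats the 2-4 cell high of cow GCLC and the downward course of pig GCLC. The nearest symbols to CAT were STX7 (0.32) and UNC50 (0.35), and those to PRDX2 were CREB3L2 (0.33) and DSTN (0.36). PRDX3 was nearest to HSPA4 (0.34) and FAM213A (0.38), and SOD1 to DYNLT3 (0.36) and TMEM57 (0.39), against medians over all symbols of 1.34 to 1.81 for these 4 genes.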

How the data were processed

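The authors deposited log2 values, with cow and pig in separate tables and a column per stage. From the values, every nonzero entry is a whole number of reads (within a relative tolerance of 0.0001) per 1000000 reads of its library, and 0 reads are written as 0.9 of a read. Per the submitters' processing notes, Trim Galore 0.6.4 and HISAT2 2.1.0 were used with the builds UMD3.1 and Sscrofa11.1. Which build belongs to which table, the counter, its use of strand, its handling of reads with several matches and the annotation are not given in the sources used here. Positions are those of the tables. Per the labels' protocols, PicoPure RNA was amplified with the Ovation RNA-Seq System V2 and libraries were amplified with 8 PCR cycles, with no molecular identifiers described, and amplification of small inputs adds error that the intervals do not cover.

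Values were turned back into RPM and reads, and differences of log2(RPM + 1) (pseudocount of 1, with 0 reads at the deposited 0.9 of a read) were computed over all rows with at least 1 RPM in 1 of both libraries. With 1 library per group there was no test. Folds against 0 reads are lower bounds from the floor of 3 reads in the library without reads. Ratios from 1 to 3 reads carry their counting interval. The 12 alternatives changed the pseudocount, the minimum, the threshold, the scaling, the depth, repeated symbols and, chosen after seeing the data, the value for 0 reads. The computation was tested on simulated data. Python 3.11.15, NumPy 2.4.6, pandas 2.3.3, SciPy 1.17.1 and Matplotlib 3.10.9 were used.

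The 10 genes, the 5 redox lists and the marker lists were chosen with earlier results of these data known, and 1 gene of the redox lists is not reported here and was left out of their counts. Named in the text were the 10 genes, list genes called from oocyte to blastocyst in both species (at most 4 per list), the gene with the largest difference per list and species among those outside the 10, the 2 symbols nearest to each of the 5 of them that reached 1 RPM in both species, and genes whose rows overlap one of the 10. Marker genes, neighbours of TXN, SOD3, GCLM, NFE2L2 and the further redox genes of the closing section fall outside this rule and were chosen after their values were seen.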

Additional observations from a re-analysis of the deposited data

Results flagged for a closer look

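4 of the antioxidant defence genes, looked at over every step, and 4 further redox genes, looked at from oocyte to blastocyst, had opposite directions in cow and pig, with the counting interval of each ratio away from 1. Each value is a difference of log2(RPM + 1) between 2 libraries, and the difference between the species was not tested. How often other shared symbols had opposite directions is not given here. From oocyte to 2-4 cells GCLC gave 0.63 in cow and -0.55 in pig. From 8-16 cells to the morula PRDX2 gave 0.61 in cow and -2.30 in pig, the latter from 28 reads to 3. The PRDX2 rows differ in span, with 2637 bases in cow and 31790 in pig. From the morula to the blastocyst SOD1 gave 2.50 in cow, from 12 reads, and -0.67 in pig. From oocyte to blastocyst PRDX3 gave -0.65 in cow and 2.20 in pig. TXNIP, the inhibitor of thioredoxin, gave -4.97 in cow and 2.84 in pig over the same span, the latter from 1 read. Of the 3 others, none called in either species, BACH1, a repressor that competes with NRF2, gave -1.36 in cow and 1.85 in pig, GCLM, the partner of GCLC, -1.21 and 0.64, and SRXN1, which repairs overoxidised peroxiredoxins, -1.82 and 1.82 (from 15 reads to 2 in cow and from 0 to 13 in pig). With 1 library per group, no group could be searched for samples that stand apart.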

How the results depend on the processing

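No called difference of the 10 genes changed sign under the alternatives that recomputed it, and 122 recomputed counts stayed within 1.5 times the reported count while 22 did not. A pseudocount of 5 gave 0 in place of 1 gene called from 8-16 cells to the morula in cow, 0 in place of 2 there in pig, 3 in place of 5 from the morula to the blastocyst in pig, 3 in place of 6 from oocyte to blastocyst in pig, and 9 in place of 18 genes of the redox lists in cow. A pseudocount of 0.1 gave 1 in place of 0 from 2-4 to 8-16 cells in pig. A threshold of 1 gave, in cow, 7 in place of 4 from 2-4 to 8-16 cells, 2 in place of 1 from 8-16 cells to the morula, 5 in place of 2 from oocyte to blastocyst and 30 in place of 18 for the lists, and in pig 3 in place of 0 from oocyte to 2-4 cells and 1 in place of 0 from 2-4 to 8-16 cells. A threshold of 3 gave, in cow, 1 in place of 4, 0 in place of 1, 1 in place of 2 and 8 in place of 18, and in pig 0 in place of 2 from 8-16 cells to the morula, 3 in place of 6 from oocyte to blastocyst and 12 in place of 19 for the lists. Scaling to the median gene and quantile normalisation each gave 2 in place of 4 from 2-4 to 8-16 cells in cow, and quantile normalisation gave 4 in place of 2 from oocyte to blastocyst in cow.

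Scaling to the median gene shifted the median difference of all rows from oocyte to blastocyst by -0.39 in cow and -0.62 in pig, and leaving out mitochondrial reads shifted it by 0.41 in cow. After quantile normalisation the shift was -0.20 for the cow rows and -0.41 for the pig rows, and over the single steps the shifts of these settings lay between -0.40 and 0.28. The share of calls that were higher went there from 54.1% to 43.7% in cow and from 57.6% to 45.3% in pig with median gene scaling. Quantile normalisation moved no such share over that span by more than 10 percentage points. From oocyte to 2-4 cells, where 22 rows were called higher and 20 lower in cow, it went from 50% to 15.9% with median gene scaling, to 20.5% with quantile normalisation and to 65% after thinning, and in pig from 59.97% to 71.0% with median gene scaling. From 2-4 to 8-16 cells in pig it went from 88.8% to 69.7% and 62.7%. Among differences of the 10 genes that were not called, 15 recomputed values changed sign or became 0. Depth limits GPX1, GPX4, PRDX2 and PRDX3 in pig and SOD1 in the cow morula, through libraries with 13 or fewer reads of the gene. No paired analysis was possible because the labels carry no replicate numbers and each group has 1 library.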

Other observations

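Some redox genes outside the 10 were highest before the blastocyst in at least 1 species, and they were chosen here after their values were seen. IDH2, a mitochondrial source of NADPH, had 0 reads in the cow oocyte and at 2-4 cells, 1.66 RPM at 8-16 cells, 29.5 RPM in the morula and 2.12 RPM in the blastocyst. In pig it was highest in the blastocyst, with 7.40, 4.35, 9.16, 15.3 and 56.3 RPM over the 5 stages, a called difference of 2.77 from the oocyte. PRDX4, the peroxiredoxin of the secretory pathway, was highest at 8-16 cells in cow, with 33.0 RPM against 4.87 RPM in the oocyte and 10.01 RPM in the blastocyst, while in pig it stood at 2.37, 3.87, 24.0, 45.6 and 51.7 RPM over the 5 stages. GSR, which regenerates reduced glutathione, measured 95.3, 70.6, 58.1, 4.33 and 5.90 RPM over the pig stages, so its low levels began in the morula, and 20.5, 28.8, 2.76, 4.87 and 5.92 RPM over the cow stages, where they began at 8-16 cells. HMOX1, a haem oxygenase and a common NRF2 target, had 1 read in the cow oocyte and 0 reads in the 4 other cow libraries.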
